A study of Homo sapiens with 4 samples.

Results

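The AP-1 family genes described here are FOS, FOSL1, FOSL2, JUN, JUNB, JUND and ATF3, and the data are the BACH1-bound sites mapped around them in 2 human airway epithelial cell lines. A peak was taken as belonging to a gene when its summit, the base of highest signal, lay within the gene or up to 50 kb to either side. The 7 windows ran from 102 to 155 kb and covered 798 kb in all. They held 21 of the 13661 deposited peaks: 8 of 10246 in Calu3 and 13 of 3415 in 16HBE14o-. A peak near a gene was not taken to act on that gene, since other genes can lie in the same windows.

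The study mapped BACH1 by chromatin immunoprecipitation and sequencing (ChIP-seq), with a rabbit antibody against BACH1, in a series on the regulation of CFTR, the chloride channel gene mutated in cystic fibrosis. Calu3 is a lung adenocarcinoma line and 16HBE14o- an immortalised bronchial epithelial line, so each stands for 1 established line and not for primary epithelium. Both lines were grown in DMEM with serum, no further treatment or genetic change is named for either, and each gave 2 replicates. The authors combined the replicates of a line into 1 list through the irreproducible discovery rate, a method based on how alike peaks rank between replicates. Whether each listed peak was found in both replicates is not stated, and only the combined lists are given. There is therefore no replicate spread behind any value below, no test between the lines was possible, and read depth is unknown. Strength is the authors' own value per peak: a fold enrichment in Calu3 and a peak signal on another, unstated scale in 16HBE14o-. It was used only to rank peaks within a list, with rank 1 the strongest, because the scales differ and the peak callers are not named.

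AP-1 is a dimer of basic leucine zipper proteins. FOS, FOSL1 (Fra-1) and FOSL2 (Fra-2) pair with JUN, JUNB or JUND, and the dimers bind the short palindrome known as the TPA response element, while ATF3 is a stress-induced relative that pairs with JUN proteins and often represses. BACH1 belongs to the same wider class, forms dimers with small MAF proteins and holds down antioxidant genes until haem or oxidants release it. Its usual site contains an AP-1 site, so the factors can meet on the same DNA. In airway epithelium some AP-1 genes, such as FOS, respond within minutes to growth factors, injury and oxidants.

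FOSL1 stood out among the 7 genes in both lines. Its window held 10 of the 13 member peaks of 16HBE14o- and 4 of the 8 of Calu3, and the strongest peak of the whole set in either line lay inside the gene. JUN had 1 peak, at the same place in both lines. FOS and FOSL2 had weak peaks in Calu3 only, ATF3 had weak peaks in 16HBE14o- only, and the windows of JUNB and JUND held no peak in either list. At least 1 peak thus fell in 4 of the 7 windows in Calu3 and in 3 of 7 in 16HBE14o-. A peak in 1 list only is common here: 15.3% of all Calu3 peaks overlapped a 16HBE14o- peak, and 46.4% of all 16HBE14o- peaks overlapped a Calu3 peak. Of fixed 100 kb windows between a list's first and last peak on each chromosome, 24.0% held a Calu3 peak and 8.95% a 16HBE14o- peak. The gene windows are longer, at 102 to 155 kb, and the comparison takes no account of where genes lie.

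**Figure D1:**
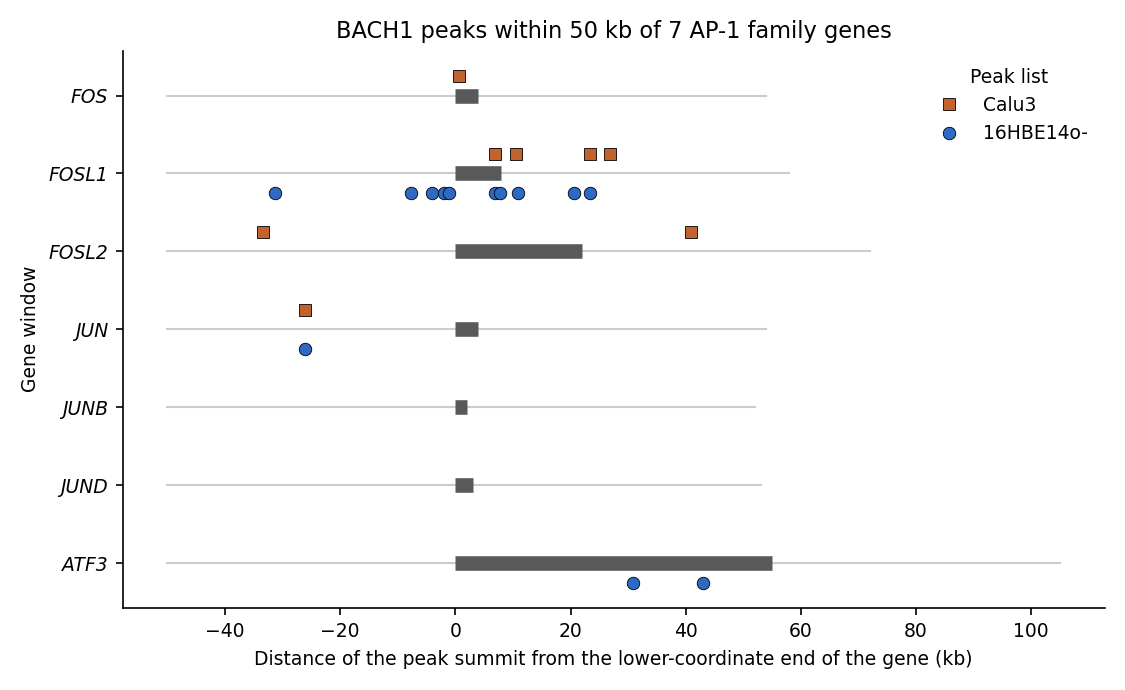
Position of each BACH1 peak summit around the 7 genes, in kb from the end of the gene with the lower coordinate; thick bars are the genes, thin lines the windows, squares Calu3 peaks and circles 16HBE14o- peaks. The FOSL1 row carries 4 squares and 10 circles, whereas the JUNB and JUND rows are empty.

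The strong FOSL1 peak lay within the gene in both lines. FOSL1 encodes Fra-1, an AP-1 subunit associated with epithelial migration and repair. In hg19 the gene spans about 65660 to 65668 kb of chromosome 11 and is read toward lower coordinates, so the upper end is its start. In 16HBE14o- the peak ran from 65666731 to 65666970, with a signal of 112 and rank 99 of 3415. In Calu3 it ran from 65666590 to 65667124, with a fold enrichment of 18.7, rank 234 of 10246 and a deposited q of 3.5e-62. The summits were 42 bp apart and lay 1.15 and 1.11 kb inside the start of the gene, in the same order. The gene's ends are known here only to about 1 kb, and exons and introns were not mapped.

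A second strong site lay upstream of FOSL1. Its summits, 15.33 kb above the gene in 16HBE14o- and 15.32 kb in Calu3, were 7 bp apart. It ranked 187 in 16HBE14o- with a signal of 88.8, and 1392 in Calu3 with a fold enrichment of 8.74. In RefSeq order the next protein-coding genes on that side are C11orf68 and DRAP1, so FOSL1 need not be the nearest gene start. Counting both sites, 2 of the 13 member peaks of 16HBE14o- were in the strongest 10% of their list (9.99% of all its peaks, by construction). In Calu3 1 of 8 was, against 10.0% of its list.

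A further FOSL1 pair touched only at its edges. The 16HBE14o- peak from 65670711 to 65670950 (signal 27.3, rank 2122) and the Calu3 peak from 65670530 to 65670717 (fold enrichment 3.90, rank 5656, q 0.0042) shared 7 bp. Their summits lay 242 bp apart, 2.83 and 2.59 kb upstream of the gene. Under a rule that asks for summits within 100 bp, this pair no longer counted as shared.

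The other 7 of the 10 peaks of 16HBE14o- in the FOSL1 window met no Calu3 peak. Of the whole 16HBE14o- list, 46.4% of peaks overlapped a Calu3 peak. One of them, from 65667692 to 65667931, had its summit 0.19 kb inside the upper end of the gene span and so close to the gene's start. It was weak, with a signal of 22.6 and rank 2971, and lay 919 bp from the nearest Calu3 summit. The strongest of the 7 ran from 65680451 to 65680690, 12.57 kb upstream of the gene, with a signal of 45.9 and rank 704. It had no Calu3 summit nearer than 2748 bp.

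The remaining 5 all lay downstream of FOSL1, on the side of CCDC85B, FIBP and CTSW, where Calu3 had no peak within the window. The nearest to the gene, from 65658841 to 65659080 and 1.04 kb below it, was also the weakest, with a signal of 20.8 and rank 3180. The next, from 65657981 to 65658220, was 1.90 kb below the gene and the strongest of the 5, with a signal of 35.4 and rank 1202. Those at 4.05 and 7.75 kb ranked 2066 and 2037 with signals of 27.7 and 27.8, and the outermost, at 31.22 kb, ranked 2449 with a signal of 25.3. Calu3 in turn had 1 FOSL1 peak without a counterpart, from 65686720 to 65686917 and 18.79 kb upstream, with a fold enrichment of 3.49, rank 6756 and a q of 0.059.

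**Figure D2:**
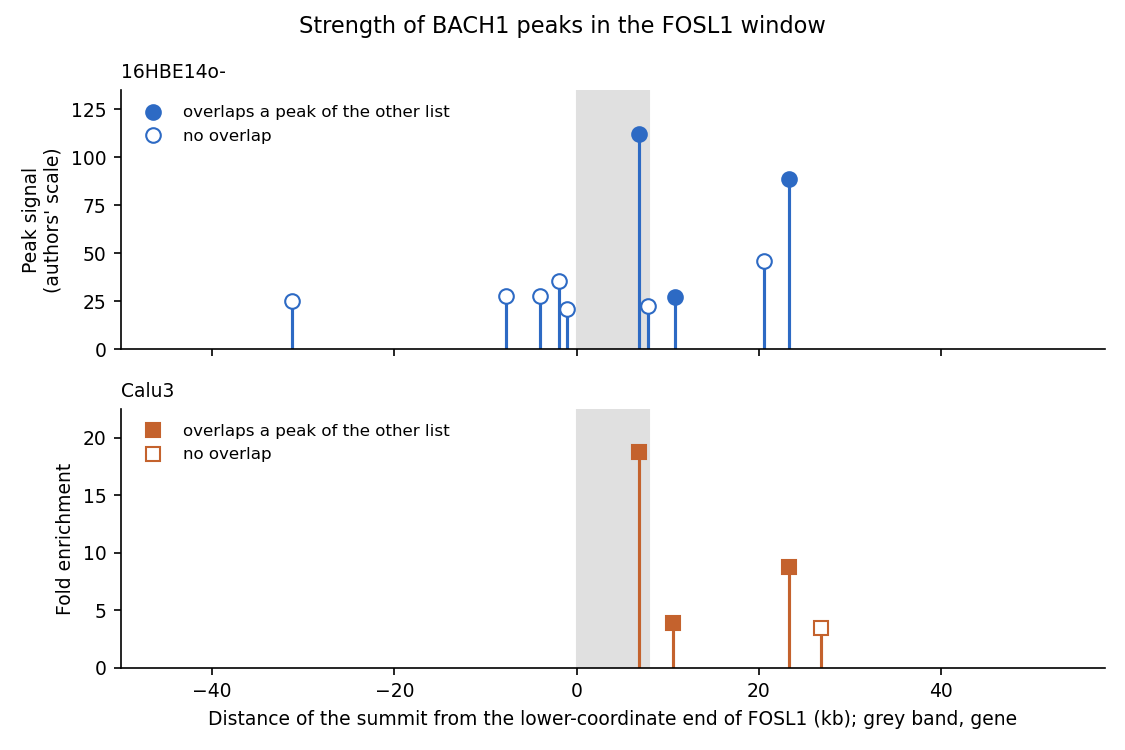
Strength of each peak in the FOSL1 window against the distance of its summit from the lower-coordinate end of the gene in kb (grey band, gene), as peak signal in 16HBE14o- and as fold enrichment in Calu3; filled symbols overlap a peak of the other list. The scales cannot be compared between panels; in both, the tallest symbol is inside the gene, and the 5 circles left of the gene have no square below them.

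The FOSL1 peaks of 16HBE14o- were among the most closely packed of their list. All 10 lay within 54.5 kb, with neighbouring summits 860 to 23473 bp apart and a median gap of 3019 bp. Each had 9 other peaks of the list within 50 kb, which for the outermost ones include peaks beyond the window. Only 17 peaks (0.498% of the list) had as many, of which 10 were these and 7 lay on 2 other chromosomes. Of the fixed 100 kb windows described above, 0.00344% held 10 or more 16HBE14o- peaks, which was the 1 window that holds these. The strongest FOSL1 peak had 4.05 times the median signal of the 10, and the median itself, 27.7, was under the median of the whole list, 30.1. In Calu3 the 4 FOSL1 peaks lay within 19.9 kb and each had the other 3 within 50 kb. Of all Calu3 peaks 11.4% had 3 or more, and 0.776% of 100 kb windows held 4 or more.

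**Figure D3:**
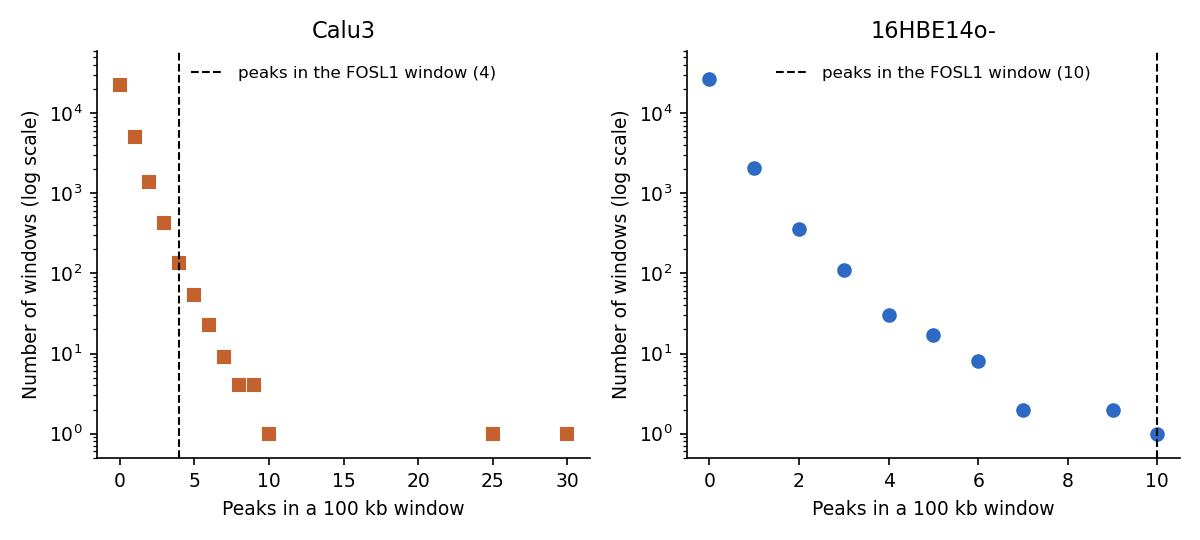
Number of fixed 100 kb windows (log scale) by how many peaks each holds, in Calu3 (left) and 16HBE14o- (right). These windows run between the list's first and last peak on each chromosome. The dashed line marks the count in the FOSL1 window. At 10 peaks the line meets the last point of the 16HBE14o- panel, whereas the 4 peaks of Calu3 lie well inside its range.

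FOS had 1 peak, in Calu3, at the start of the gene. FOS is the immediate early gene that gave the family its name, and in hg19 it spans about 75745 to 75749 kb of chromosome 14. The peak ran from 75745301 to 75745602, and its summit was 0.57 kb above the lower end of that span, where the gene starts. It was weak: the fold enrichment was 3.11, the rank 7878 of 10246 and the deposited q 0.36. The 16HBE14o- list had no FOS peak, and its nearest peak to the gene lay 160.5 kb above it, on the side of JDP2 and BATF, at rank 473 and a signal of 57.3. That peak overlapped none of Calu3, whose next peak on the same side lay 118.1 kb from FOS with a fold enrichment of 7.83.

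FOSL2 had a pair of peaks in Calu3 and none in 16HBE14o-. FOSL2 encodes Fra-2, and its gene spans about 28616 to 28638 kb of chromosome 2. One Calu3 peak ran from 28582345 to 28582587, 33.44 kb upstream, with a fold enrichment of 2.73, rank 9078 and a q of 0.58. The other ran from 28656896 to 28657048, 18.94 kb downstream, with a fold enrichment of 2.90, rank 8549 and a q of 0.68. Both thus fell among the weakest 25% of the list. With FOS and the outermost FOSL1 peak, they made up the 4 of 8 member peaks of Calu3 with a q of 0.05 or more, and 4 had a q under 0.05, against 73.3% of the whole list.

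JUN had the same single site in both lines. JUN encodes c-Jun, a JUN partner of the FOS proteins, and its gene spans about 59246 to 59250 kb of chromosome 1, read toward lower coordinates. The site therefore lay downstream, 26.10 kb below the gene in 16HBE14o- and 26.09 kb below it in Calu3, with summits 12 bp apart. In 16HBE14o- it ran from 59219781 to 59220020 with a signal of 44.9 and rank 729, and in Calu3 from 59219768 to 59220031 with a fold enrichment of 4.76, rank 4045 and a q of 3.1e-07. It was the only pair of member peaks that also overlapped by 50% of both widths, since the shared Calu3 peaks inside and 15 kb upstream of FOSL1 were 535 and 524 bp wide and all 13 member peaks of 16HBE14o- were 240 bp wide, like 98.4% of that list.

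JUNB and JUND were without a peak in either list. JUNB and JUND encode the other JUN subunits, of which JUND is in many cells the more steadily expressed. JUNB, at about 12902 to 12904 kb of chromosome 19, lies between HOOK2 and PRDX2, the latter a peroxidase gene of the antioxidant defence. Its nearest peaks were far off, at 258.6 kb in 16HBE14o- (rank 1610) and 371.0 kb in Calu3 (rank 7766), and they did not overlap. For JUND, at about 18390 to 18393 kb of the same chromosome, the nearest peak was a shared site upstream. It lay 92.4 kb from the gene in 16HBE14o-, with rank 393 and a signal of 63.2, and 92.5 kb in Calu3, with rank 1327 and a fold enrichment of 8.98, with summits 17 bp apart. Past LSM4 and PGPEP1, the next gene in RefSeq order on that side is GDF15. With the depth not known, a window without a peak means only that none was detected.

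ATF3 had 2 peaks in 16HBE14o-, both within the gene span, and none in Calu3. The gene spans about 212739 to 212794 kb of chromosome 1 and has several starts. One peak ran from 212769759 to 212769998, with its summit 30.88 kb from the start of the span, a signal of 22.7 and rank 2964. The other ran from 212781924 to 212782163, 43.04 kb from the start, with a signal of 23.9 and rank 2738. Both were in the weaker part of the list. The Calu3 peak nearest to ATF3 lay 76.8 kb below the gene, with a fold enrichment of 3.51 and rank 6686.

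**Figure D4:**
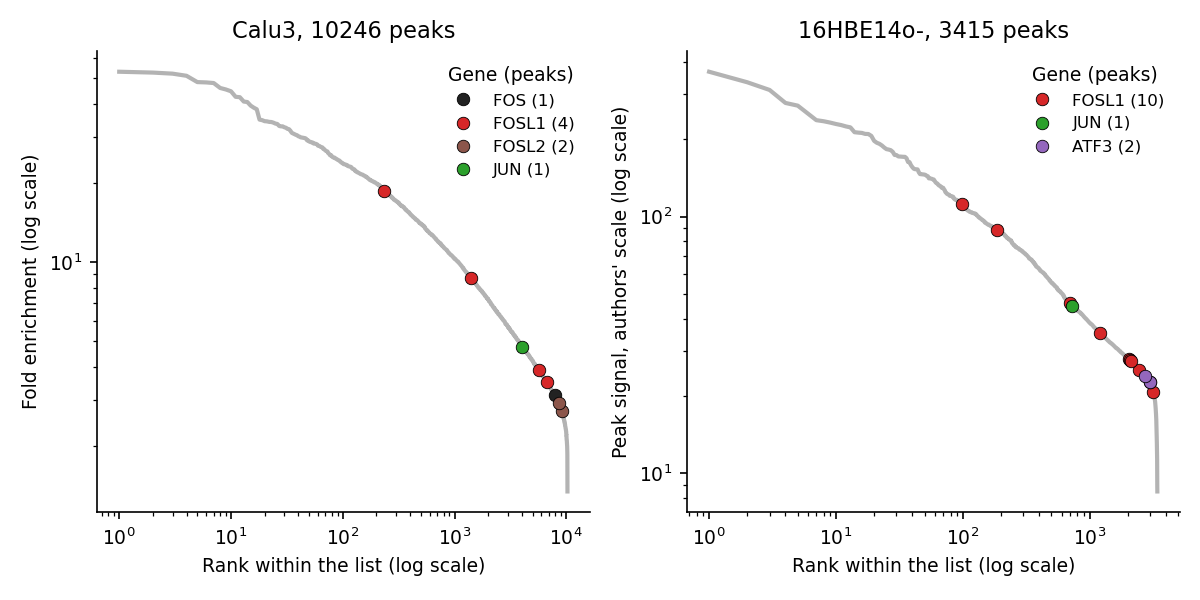
Authors' strength value against rank for all peaks of each list (grey line; both axes on log scales), with the member peaks marked by gene, as fold enrichment in Calu3 (left) and peak signal in 16HBE14o- (right). In both panels a FOSL1 point is the highest member, at rank 234 and rank 99, and the FOS, FOSL2 and ATF3 points sit at the lower right end.

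Across all member peaks, 4 of the 8 in Calu3 (50%) overlapped a 16HBE14o- peak by at least 1 bp, against 15.3% of the whole Calu3 list. Of the 13 in 16HBE14o-, 4 (30.8%) overlapped a Calu3 peak, against 46.4% of that list. The 4 shared sites were the 3 of FOSL1 and the 1 of JUN. These shares rest on few peaks that lie close together, and no interval or test is given for them. By strength, the median member stood at 60.6% of the way down the Calu3 list and at 60.5% of the way down that of 16HBE14o-. The upper 50% of the lists held 3 of the 8 member peaks of Calu3 and 5 of the 13 of 16HBE14o-. With so few peaks, these counts were close to the 50% of a whole list. In 16HBE14o-, 4 of 13 carried the highest value of the authors' further score, 3.34, against 30.9% of the list.

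The limit of 50 kb left out strong sites around JUN, FOSL2 and JUND. The member peaks nearest to a window edge were 16.56 kb (FOSL2, Calu3) and 18.78 kb (FOSL1, 16HBE14o-) inside it. A shared site lay 47.4 kb beyond the JUN window, 97.4 kb upstream of the gene, with summits 14 bp apart. It ranked 36 in 16HBE14o- (signal 169) and 155 in Calu3 (fold enrichment 21.3). It outranked every peak within the 7 windows in both lists. The next protein-coding gene on that side of JUN is FGGY. Beyond the FOSL2 window, 93.4 kb downstream of the gene on the side of PLB1, a shared site ranked 307 in 16HBE14o- (signal 72.0) and 1524 in Calu3 (fold enrichment 8.34), with summits 17 bp apart. The JUND site at 92.4 kb was another of this kind. These 3 sites were chosen for mention after their values were seen.

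The promoters of FOS, FOSL2 and JUND are shown because FOS had a peak at its start, whereas FOSL2 carries an AP-1 site and JUND a cyclic AMP response element (CRE) near the start but neither had a peak there. Each runs from 250 bases before the RefSeq start to 30 after it (GRCh38.p14), 5′ to 3′ on the gene's strand, with motif matches in capitals. FOS lies on chromosome 14 from 75278578 to 75278857 (plus strand), FOSL2 on chromosome 2 from 28392608 to 28392887 (plus) and JUND on chromosome 19 from 18281593 to 18281872 (minus).
FOS: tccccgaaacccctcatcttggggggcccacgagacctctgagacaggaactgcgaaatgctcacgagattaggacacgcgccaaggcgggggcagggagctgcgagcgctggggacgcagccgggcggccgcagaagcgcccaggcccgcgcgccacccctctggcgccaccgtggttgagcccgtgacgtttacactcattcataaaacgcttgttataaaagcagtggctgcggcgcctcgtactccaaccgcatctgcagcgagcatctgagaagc
FOSL2: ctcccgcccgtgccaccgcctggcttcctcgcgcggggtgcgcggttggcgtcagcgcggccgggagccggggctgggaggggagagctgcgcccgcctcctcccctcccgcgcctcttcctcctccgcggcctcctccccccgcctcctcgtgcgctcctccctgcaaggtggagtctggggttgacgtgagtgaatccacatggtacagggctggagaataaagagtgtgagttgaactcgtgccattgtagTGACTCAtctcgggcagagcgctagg
JUND: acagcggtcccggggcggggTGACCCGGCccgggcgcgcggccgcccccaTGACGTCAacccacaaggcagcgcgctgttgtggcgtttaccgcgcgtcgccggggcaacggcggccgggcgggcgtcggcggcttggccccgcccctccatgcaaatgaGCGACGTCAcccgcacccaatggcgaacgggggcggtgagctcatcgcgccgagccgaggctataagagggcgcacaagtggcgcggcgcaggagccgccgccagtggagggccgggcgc
The capitals in FOSL2 mark an AP-1 site that begins at base 5 after the start. In JUND they mark the CRE at −200 and antioxidant response element cores at −230 and −90. FOS has no capitals. Because the promoters are on GRCh38 and the peaks on hg19, the FOS peak could not be laid over its promoter base by base.

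The motifs were searched on both strands of the 300 bases around each of 35116 RefSeq starts, which include 7 starts of 6 of the 7 genes (2 for ATF3, none for FOSL1). The BACH1 and small MAF site, here the letters TGC followed directly by the AP-1 site TGAGTCA, was in none of the 7 and in 0.154% of all promoters. The AP-1 site TGANTCA was in 1 of 7, that of FOSL2, and in 7.71% of all. The CRE TGACGTCA was in 1 of 7, that of JUND, and in 1.85% of all. The antioxidant response element core TGACNNNGC, which shares its first letters with the CRE, was in 1 of 7, again JUND, and in 13.3% of all. A match describes letters, not binding, and no match says only that these letters are not in these windows.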

How the data were processed

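BACH1 ChIP-seq peaks of 2 cell lines, with 2 replicates each, were analysed as deposited. The submitters' processing notes name hg19, and per the labels each list combines both replicates by the irreproducible discovery rate. Which aligner, peak caller, filters or control library were used is not given in the sources used here. The deposited Calu3 values are, by the format of the list, a fold enrichment with its −log10 p and −log10 q. The deposited 16HBE14o- values are a peak signal of unstated scale and a further score in the q column. Both lists also hold a browser score from the authors, not used here.

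Peaks were chosen by summit within 50 kb of each gene, with gene spans taken to the kb; RefSeq lengths (GRCh38.p14) differed from these spans by at most 2.46 kb. Peaks of the lists were shared when they overlapped by 1 bp or more. Ranks follow column 7, and tied peaks take the better rank. All coordinates of peaks are 1-based. All 7 genes and every peak in their windows are named, as are neighbouring genes in RefSeq order. The genes and rules were chosen with earlier results of these data known. Other AP-1 family genes (FOSB, BATF, BATF2, BATF3, JDP2, ATF2, ATF7 and ATF4) were not analysed here, since positions on hg19 were not at hand. Alternatives changed the window, the summit and overlap rules, merging, the ranking column and the list length. Scripts ran in Python 3.11.15 with numpy 2.4.6 and pandas 2.3.3 and were tested on simulated data, in which planted window counts, overlaps and ranks were all recovered.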

Additional observations from a re-analysis of the deposited data

How the results depend on the processing

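No paired analysis was possible because the deposited lists hold no values per replicate, and for the same reason no replicate could be left out. Counting peaks by any base in the window, or merging overlapping peaks, changed no count. With windows of 25 kb to each side, Calu3 had 6 peaks in 3 windows and 16HBE14o- 11 peaks in 2 windows. The JUN site, 26.1 kb from the gene, then fell outside its window in both lists. With windows of 10 kb to each side, Calu3 kept 3 peaks in 2 windows; 16HBE14o- had 9 peaks in 2 windows. In the upper 50% of each list Calu3 had 3 peaks in 2 windows and 16HBE14o- 5 peaks. With only Calu3 peaks of q under 0.05, 4 peaks in 2 windows were left, and with only the 3415 strongest Calu3 peaks, 2 peaks in 1 window, that of FOSL1. With windows of 100 kb to each side, chosen after seeing the data, the counts were 17 peaks in 6 windows in Calu3 and 20 peaks in 5 windows in 16HBE14o-, with 8 shared peaks in each list. Shared peaks fell from 4 to 1 in each list under a reciprocal overlap of 50%. Ranked by column 8, the strongest 10% of Calu3 held 2 member peaks. By column 9, 4 of the 13 member peaks of 16HBE14o- were counted. However, 30.9% of that list ties at the top value of column 9, so this set is larger than 10%. The 4 are the member peaks with that top value. By column 7, the strongest 25% held 2 member peaks in Calu3 and 4 in 16HBE14o-. With 1 mismatch allowed, the BACH1 and small MAF site was in 2.75% of all promoters, the antioxidant response element core in 92.7%, the AP-1 site in 62.3% and the CRE in 11.8%. Of the 7 member promoters, 0, 7, 6 and 4 then held them, in the same order, against 0, 1, 1 and 1 with exact letters. Depth is unknown and limits what a missing peak can mean.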
